A study of Homo sapiens with 4 samples.

Results

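The core machinery of autophagy was described here as 36 genes, chosen by name among the 58735 genes of the deposited tables. They were the initiation complex (5 genes), the lipid kinase complex (6), membrane supply and phosphatidylinositol 3-phosphate effectors (6), conjugation and processing enzymes (10), the LC3 family (3), the GABARAP family (3), the fusion protein gene STX17 and the transcription factor genes TFEB and TFE3. The cells were OMM2.3, a human uveal melanoma line grown in medium with 10% serum, and 4 RNA libraries were sequenced, 1 per group. The groups were cells given CCCP and DHA together (labelled Combined, CCCP + DHA), cells given CCCP, cells given DHA, and control cells. CCCP is a protonophore that uncouples mitochondrial respiration from ATP synthesis, and the labels do not spell out DHA. The sources used here give no doses, no times and no account of what the control cells received.

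Autophagy encloses cytoplasm in a double membrane, the autophagosome, and delivers it to the lysosome. The ULK1 kinase complex starts the process, a class III phosphatidylinositol 3-kinase complex marks the membrane, and WIPI, ATG2 and ATG9 proteins supply it with lipid. A ubiquitin-like conjugation system then attaches LC3 and GABARAP proteins to the membrane, where they bind cargo receptors and help the vesicle close and fuse. TFEB and TFE3 are transcription factors of lysosome and autophagy genes. Much of the pathway is controlled by phosphorylation and by turnover of LC3 protein, which RNA levels do not measure.

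The libraries held 16900411 reads over genes with CCCP plus DHA, 16942245 with CCCP, 17347602 with DHA and 18937286 in control, as recovered from the deposited FPKM, a level per length of exon and per size of library. Mitochondrially encoded genes took 3.85% of reads with CCCP plus DHA, against 5.09, 5.18 and 4.8% with CCCP, with DHA and in control. Of 10 melanocyte lineage markers, 5 (MITF, PMEL, GPR143, RAB27A and GPNMB) reached 1 FPKM in at least 1 library, while SOX10, MLANA, TYR, TYRP1 and DCT did not, and TYR had 0 reads throughout. None of 5 leukocyte and 4 endothelial markers reached 1 FPKM. Of 5 epithelial markers KRT8, KRT18 and KRT7 did, with a summed level of 269.9 FPKM with CCCP plus DHA, 300.4 with CCCP, 347.5 with DHA and 377.7 in control. Of 5 fibroblast markers COL1A1 and PDGFRB did, with a summed level over the list of 4.43 FPKM with CCCP plus DHA, 12.4 with CCCP, 7.82 with DHA and 17 in control. The part of these differences in the results on autophagy genes was not tested. In a bulk library, fewer cells that express a gene and less RNA per cell cannot be told apart.

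Of the 36 genes, 33 reached 1 FPKM in at least 1 library and entered the comparisons. Without replicates no spread between cultures could be measured. Fold differences are ratios of FPKM with exact 95% binomial (Clopper-Pearson) intervals, which cover counting error only. The size rule for counts of genes was a ratio of at least 2-fold, taken on FPKM + 0.5.

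The machinery was expressed at middling levels in every library, and LC3B stood out with the combination. The 33 genes had a median of 6.66 FPKM with CCCP plus DHA, 6.01 with CCCP, 5.91 with DHA and 5.84 in control, against 4.93, 4.79, 4.83 and 4.82 FPKM over the 13678 tested genes in the same libraries. The library with CCCP plus DHA was the highest of the 4 for 22 of the 33 genes, against 33.8% of tested genes, and CCCP was the highest for 7, DHA for 1 and control for 3, against 25.8, 16.0 and 24.5% of tested genes.

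**Figure D1:**
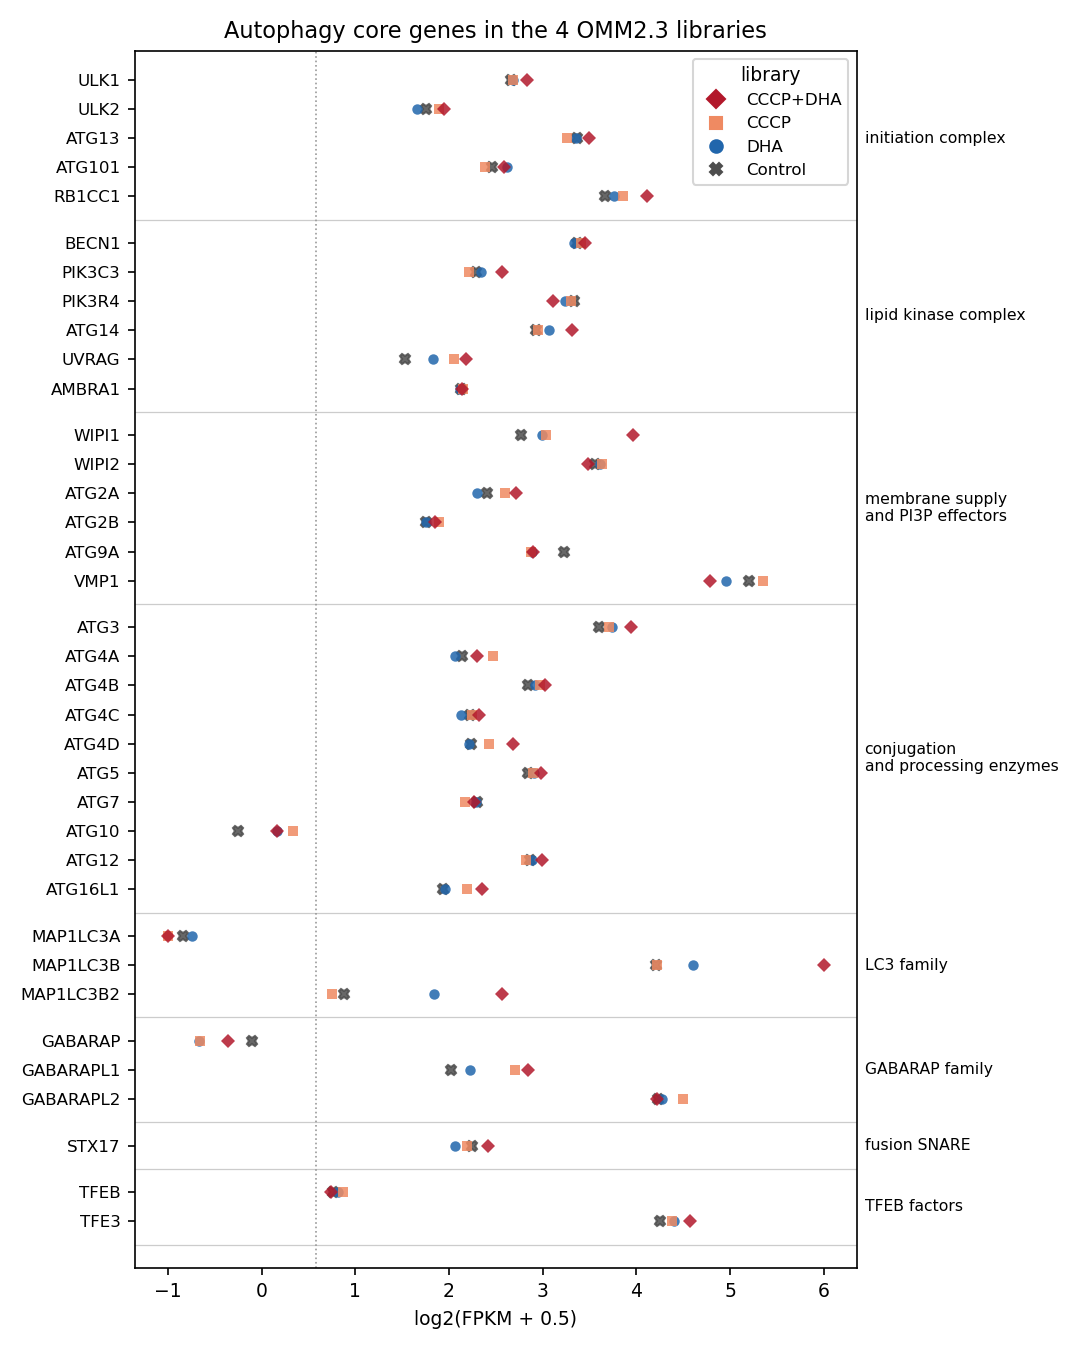
Level of each of the 36 genes in each library, as log2(FPKM + 0.5), grouped by role, with 1 marker per library and a dotted line at 1 FPKM. Most genes keep their markers close together, MAP1LC3B reaches 63.5 FPKM with CCCP plus DHA, and MAP1LC3A, GABARAP and ATG10 lie left of the line in all 4 libraries.

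With CCCP plus DHA, 3 of the 33 genes (MAP1LC3B, MAP1LC3B2 and WIPI1) were at least 2-fold higher than in control, beside 4.52% of all tested genes and 2.18% of the protein-coding ones. None was at least 2-fold lower, beside 5.44% of tested genes and 406 of the 10896 protein-coding ones. MAP1LC3B and MAP1LC3B2 are near copies in coding sequence, so they cannot be taken as 2 independent genes in these counts. All 33 members are protein-coding, so counts over the 10896 protein-coding genes are the closer comparison. With CCCP alone no member was at least 2-fold higher or lower, beside 3.21 and 2.32% of tested genes. Of the protein-coding ones, 72 passed upward and 62 downward. With DHA alone no member passed either, beside 2 and 1.86% of tested genes. Of the protein-coding ones, 39 passed upward and 8 downward. MAP1LC3B2, at 2.31-fold with DHA in plain FPKM, did pass with a pseudocount of 0.1 in place of 0.5. Against CCCP alone, the combination had 2 members at least 2-fold higher (MAP1LC3B and MAP1LC3B2), beside 3.46% of tested genes and 170 protein-coding ones. Against DHA alone it had 1, MAP1LC3B, beside 3.27%, and WIPI1, at 2.02-fold in plain FPKM, made it 2 with a pseudocount of 0.1. No member was at least 2-fold lower in these comparisons with CCCP alone and DHA alone, beside 4.94 and 3.63% of tested genes. The protein-coding counts were 311 and 214. At 1.5-fold, 5 members were higher than control with CCCP plus DHA (GABARAPL1 and UVRAG beside the 3 above), against 11.1% of tested genes. GABARAPL1 was the 1 such member with CCCP, against 7.84%, and MAP1LC3B2 the 1 with DHA, against 4.43%. UVRAG with CCCP, at 1.54-fold in plain FPKM, was under 1.5-fold on FPKM + 0.5. The combination had 4 against DHA alone (MAP1LC3B, MAP1LC3B2, WIPI1 and GABARAPL1), against 7.64%.

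Most of the other differences were small and lay on the higher side with the combination. Of the 33 genes, 26 were above control with CCCP plus DHA, beside 50.7% of tested genes, with a median log2 ratio of 0.16 against 0.01 over all tested genes. With CCCP 24 were above control, beside 49.9% of tested genes, at a median of 0.08, and with DHA 19, beside 49.9%, at 0.02. Both medians over all tested genes were 0 in these comparisons. The counting interval lay above 1 for 18 of the 33 with CCCP plus DHA, beside 30.8% of tested genes, and below 1 for 3 (ATG9A, PIK3R4 and VMP1), beside 29.3%. The 3 comparisons share the control library, so an unusual value there would enter each of them. With every library scaled to the same total, the medians for CCCP and DHA turned to -0.03 and -0.07, and those over all tested genes to -0.09 and -0.09. The other rescaling, by the median of ratios, had factors between 1.00 and 1.01. It left the medians over all tested genes at 0.001 for CCCP and -0.003 for DHA. The direction of single-compound ratios this close to 1 thus depended on the scaling and is not settled.

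**Figure D2:**
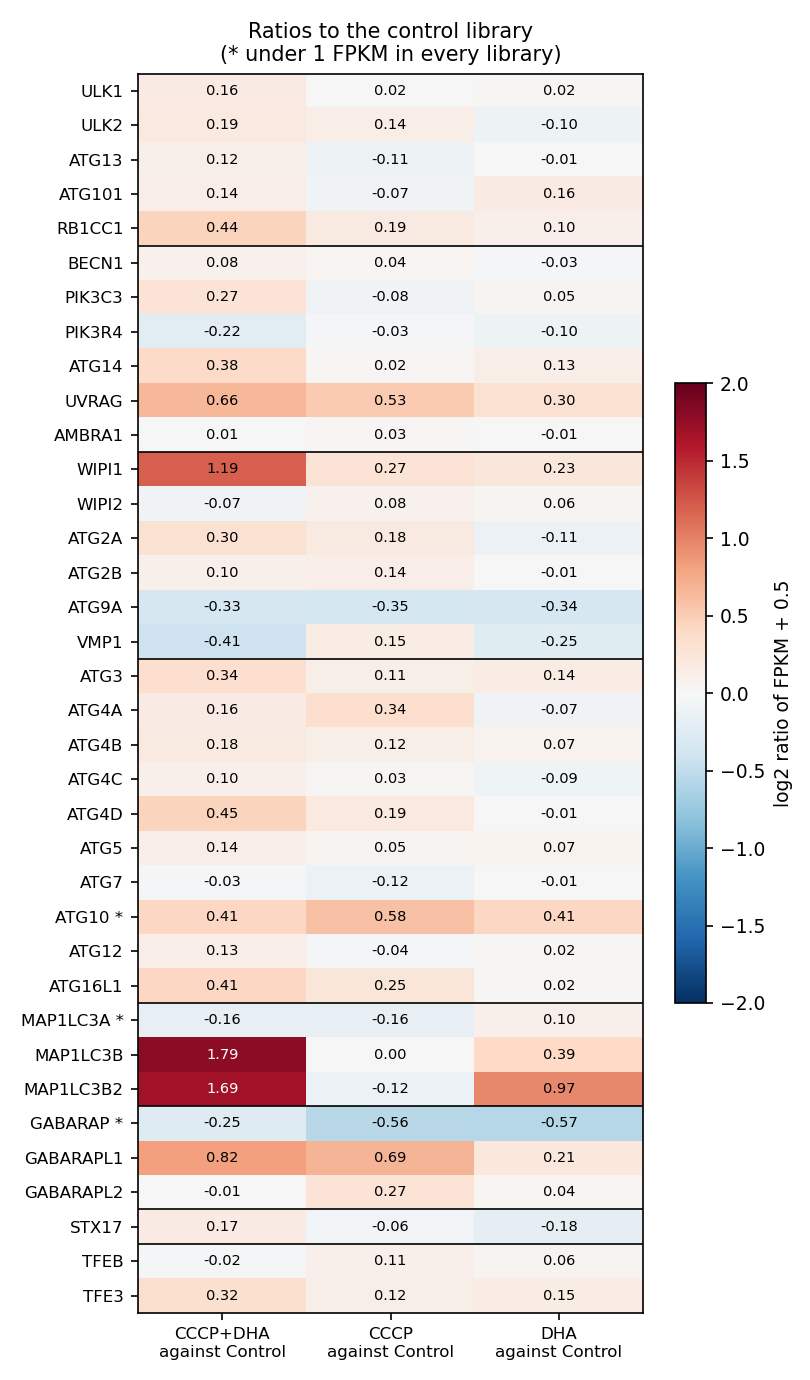
Log2 ratio of FPKM + 0.5 to the control library for each of the 36 genes, in columns for CCCP plus DHA, CCCP and DHA, with lines between roles and an asterisk on the 3 genes under 1 FPKM. The darkest cells are MAP1LC3B (1.79) and MAP1LC3B2 (1.69) with CCCP plus DHA, and ATG9A is blue in all 3 columns.

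In the initiation complex all 5 genes lay above control with the combination, beside 50.7% of tested genes, and none by 2-fold, beside 4.52%. RB1CC1, which encodes the scaffold FIP200, was at 16.8 FPKM with CCCP plus DHA, 14 with CCCP, 13.1 with DHA and 12.2 in control. It was thus highest with both compounds, 1.37-fold (1.29 to 1.46) above control, and lay above control with each compound too, though the DHA ratio was level with control (log2 -0.00) when every library was scaled to the same total. ULK1, the kinase that starts the pathway, was at 6.6, 5.91 and 5.91 FPKM with CCCP plus DHA, CCCP and DHA, and at 5.84 in control. Its single-compound libraries sat within 1.01-fold of control, and the combination was 1.13-fold (1.03 to 1.24) higher. ULK2, its paralog, and ATG13, the adaptor of the kinase, were 1.16-fold (1.03 to 1.31) and 1.09-fold (1.01 to 1.18) higher with the combination. The interval of ATG101, which stabilizes ATG13, included 1, and 53.0% of its coding bases overlap an antisense gene, AC025259.1, whose reads could not be told apart without strand.

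In the lipid kinase complex, UVRAG stood apart from the catalytic core. UVRAG, the subunit of the endosomal form of the complex, was at 4.05 FPKM with CCCP plus DHA, 3.67 with CCCP, 3.06 with DHA and 2.39 in control. All 3 treated libraries lay above control, by 1.7-fold (1.46 to 1.97), 1.54-fold (1.32 to 1.79) and 1.28-fold (1.09 to 1.51). ATG14, the subunit that directs the complex to autophagosome formation, was at 9.47 FPKM with CCCP plus DHA, 7.23 with CCCP, 7.87 with DHA and 7.14 in control. Its combination library alone stood off, at 1.33-fold (1.2 to 1.47) above control.

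The kinase gene PIK3C3 (VPS34) was 1.23-fold (1.14 to 1.33) higher with the combination than in control. PIK3R4 (VPS15), its regulatory partner, was lower, at 8.13 FPKM with CCCP plus DHA, 9.37 with CCCP, 8.91 with DHA and 9.56 in control, a ratio of 0.85 (0.773 to 0.936) for the combination. BECN1, the scaffold of both forms of the complex, and AMBRA1, its regulator, had ratios of 1.06 (0.979 to 1.15) and 1.01 (0.895 to 1.14), so that neither was told from control at this depth. The single-compound ratios of BECN1 lay between 0.979 and 1.03, and those of AMBRA1 between 0.992 and 1.02. BECN1 shares 17.1% of its exon bases with other genes, among them CNTD1 and PSME3 on the other strand. PSME3 was at 31.3, 23.3 and 35.4 FPKM with CCCP plus DHA, CCCP and DHA and at 35.9 in control, and its part in the BECN1 values was not tested.

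Among membrane supply genes WIPI1 was higher and VMP1 and ATG9A were lower. WIPI1 (ENSG00000070540, chromosome 17, 68420948 to 68457513, minus strand, GRCh38) encodes a protein that binds phosphatidylinositol 3-phosphate on the forming membrane. It was at 15.1 FPKM with CCCP plus DHA, 7.69 with CCCP, 7.45 with DHA and 6.3 in control. The combination library was far above the other 3, at 2.39-fold (2.13 to 2.69) the control level, while CCCP and DHA alone gave 1.22-fold (1.07 to 1.4) and 1.18-fold (1.03 to 1.36). The combination was 1.96-fold (1.74 to 2.2) above CCCP alone and 2.02-fold (1.8 to 2.27) above DHA alone. WIPI1 shares 828 exon bases, 24.3% of its exons, with ARSG on the other strand, and the library kit does not mark strand. ARSG was at 2.86, 2.52 and 2.01 FPKM with CCCP plus DHA, CCCP and DHA, and at 1.68 in control, and its part in the WIPI1 values was not tested. WIPI2, the paralog that recruits ATG16L1, differed little, with a ratio of 0.952 (0.891 to 1.02) for the combination.

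VMP1, a scramblase of the endoplasmic reticulum needed for autophagosome formation, was the most abundant member in control. It was at 27.2 FPKM with CCCP plus DHA, 40.3 with CCCP, 30.5 with DHA and 36.3 in control. Both libraries with DHA lay below control, and CCCP alone lay above it. The ratios to control were 0.748 (0.715 to 0.782) with CCCP plus DHA, 1.11 (1.07 to 1.15) with CCCP and 0.839 (0.803 to 0.876) with DHA. ATG9A, the scramblase carried on vesicles that seed the membrane, was at 6.94, 6.83 and 6.92 FPKM with CCCP plus DHA, CCCP and DHA, and at 8.86 in control. The 3 treated libraries were nearly level, at 0.783 (0.702 to 0.873), 0.77 (0.69 to 0.86) and 0.78 (0.7 to 0.87) of control. ATG9A shares 38.8% of its exon bases with AC068946.2, an annotated protein-coding gene on the same strand that was listed at no more than 0.0294 FPKM, so its level may be incomplete. The lipid transfer genes ATG2A and ATG2B had ratios of 1.26 (1.14 to 1.39) and 1.08 (0.98 to 1.19) with the combination.

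Differences among the conjugation and processing enzymes were small. Of 9 tested genes 8 lay above control with the combination, beside 50.7% of all tested genes. None was 2-fold higher, beside 4.52%, and the median log2 ratio of the 9 was 0.16. ATG3, the enzyme that transfers LC3 and GABARAP to lipid, was at 14.9 FPKM with CCCP plus DHA, 12.6 with CCCP, 12.9 with DHA and 11.6 in control, and was 1.28-fold (1.19 to 1.38) higher with the combination. ATG16L1, which places the conjugating complex on the membrane, was 1.38-fold (1.21 to 1.58) higher with the combination and 1.22-fold (1.06 to 1.4) higher with CCCP. Its value with DHA was 1.01-fold (0.876 to 1.17) that of control.

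ATG7, the activating enzyme, and ATG5, which joins ATG12 in the conjugate, were not told from control, with combination ratios of 0.975 (0.876 to 1.08) and 1.11 (0.998 to 1.23). ATG7 shares 18.1% of its exon bases with VGLL4 on the other strand. ATG12 was 1.1-fold (1.01 to 1.19) higher. Of the 4 proteases that trim LC3 and GABARAP and release them from membrane, ATG4B was the most abundant, at 7.66, 7.32 and 7.04 FPKM with CCCP plus DHA, CCCP and DHA and 6.69 in control. ATG4D had the largest combination ratio of the 4, 1.41-fold (1.16 to 1.72), on 233 reads with CCCP plus DHA and 186 in control. It shares 15.0% of its exon bases with KRI1 on the other strand, which was at 8.96, 6.42 and 7.6 FPKM with CCCP plus DHA, CCCP and DHA and at 6.96 in control, and the part of KRI1 in the ATG4D values was not tested. ATG4A was highest with CCCP alone, 1.3-fold (1.08 to 1.56) above control. ATG10, the enzyme that conjugates ATG12, was under 1 FPKM in all libraries, with 58, 69 and 58 reads with CCCP plus DHA, CCCP and DHA and 36 in control. It shares 374 exon bases, 6.86% of its exons, with RPS23 on the other strand. RPS23 was at 151, 132 and 141 FPKM with CCCP plus DHA, CCCP and DHA and at 89.5 in control, and its part in the ATG10 values was not tested.

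MAP1LC3B (ENSG00000140941, chromosome 16, 87383995 to 87404779, plus strand, GRCh38) encodes LC3B, the protein most used to follow autophagosomes, and had the largest log2 ratio of the 36 genes with the combination. It was at 63.5 FPKM with CCCP plus DHA, 18.1 with CCCP, 23.8 with DHA and 18 in control, on 5824, 1605, 2179 and 1865 reads. CCCP alone was level with control at 1.0-fold (0.937 to 1.07), DHA alone was 1.32-fold (1.24 to 1.4) higher, and the combination was 3.52-fold (3.34 to 3.71) higher. The combination was also 3.51-fold (3.32 to 3.71) above CCCP alone and 2.67-fold (2.54 to 2.8) above DHA alone.

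MAP1LC3B2 (ENSG00000258102, chromosome 12, 116548105 to 116576448, plus strand, GRCh38), a near copy of MAP1LC3B, was also highest with the combination and next with DHA, at a lower level. It was at 5.41 FPKM with CCCP plus DHA, 1.19 with CCCP, 3.09 with DHA and 1.34 in control, on 165, 35, 94 and 46 reads. The combination was 4.05-fold (2.9 to 5.74) and DHA 2.31-fold (1.61 to 3.36) above control, while CCCP was not told from it, at 0.886-fold (0.554 to 1.41). The coding sequences of the 2 genes, read from the GENCODE 29 transcripts, are both 378 bases long and differ at 2 positions, counted from the first coding base. In the first and last 60 coding bases, shown because they hold both differences, capitals mark the differing base (C30G and A338G, MAP1LC3B first).
MAP1LC3B, bases 1 to 60: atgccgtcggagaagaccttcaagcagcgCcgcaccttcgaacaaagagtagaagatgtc
MAP1LC3B2, bases 1 to 60: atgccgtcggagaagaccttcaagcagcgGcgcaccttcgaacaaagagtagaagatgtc
MAP1LC3B, bases 319 to 378: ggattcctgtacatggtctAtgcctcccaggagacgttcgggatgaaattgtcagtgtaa
MAP1LC3B2, bases 319 to 378: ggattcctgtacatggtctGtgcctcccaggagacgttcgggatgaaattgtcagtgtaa

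A read over either differing base can be told apart, but a coding read that covers neither could belong to either gene. Over whole transcripts, 13.4% of the 75-base words in MAP1LC3B2 transcripts also occur in MAP1LC3B, against 4.18% the other way. The sources used here do not say how the authors assigned such reads. The MAP1LC3B2 values are therefore uncertain and cannot be taken as an independent measurement beside MAP1LC3B. How many reads the 2 genes share was not tested. MAP1LC3A, the brain- and muscle-enriched paralog, had 0 reads with CCCP plus DHA, 0 with CCCP, 3 with DHA and 2 in control, and a count of 0 (up to 3 reads) allowed up to 0.0987 FPKM with the combination.

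The GABARAP family behaved differently from LC3B, and 1 of its genes, GABARAP, had few reads. GABARAPL1 was at 6.66 FPKM with CCCP plus DHA, 6.01 with CCCP, 4.18 with DHA and 3.55 in control. Both libraries with CCCP lay above the other 2, at 1.88-fold (1.62 to 2.19) and 1.69-fold (1.45 to 1.98) the control level, and DHA alone gave 1.18-fold (0.997 to 1.39). GABARAPL2 (GATE-16) was at 18.2 FPKM with CCCP plus DHA, 22.1 with CCCP, 18.8 with DHA and 18.3 in control. Its CCCP library alone stood off, 1.21-fold (1.11 to 1.32) above control, and the combination was level with control at 0.994-fold (0.91 to 1.09).

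GABARAP itself was listed at 0.281, 0.132 and 0.128 FPKM with CCCP plus DHA, CCCP and DHA and at 0.431 in control, on 11, 5, 5 and 19 reads. In GENCODE 29, 351 of its 357 coding bases, 98.3%, also lie in exons of other genes. The overlapping genes AC120057.2, on the same strand, and AC120057.3 held at most 0.223 FPKM. Among all protein-coding genes with at least 90% of coding bases shared, 86.3% of 765 were under 1 FPKM in all 4 libraries, against 44.4% of 14455 genes with none shared. The part of the overlap in the GABARAP values was not tested, and no level or change of GABARAP is read from them.

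**Figure D3:**
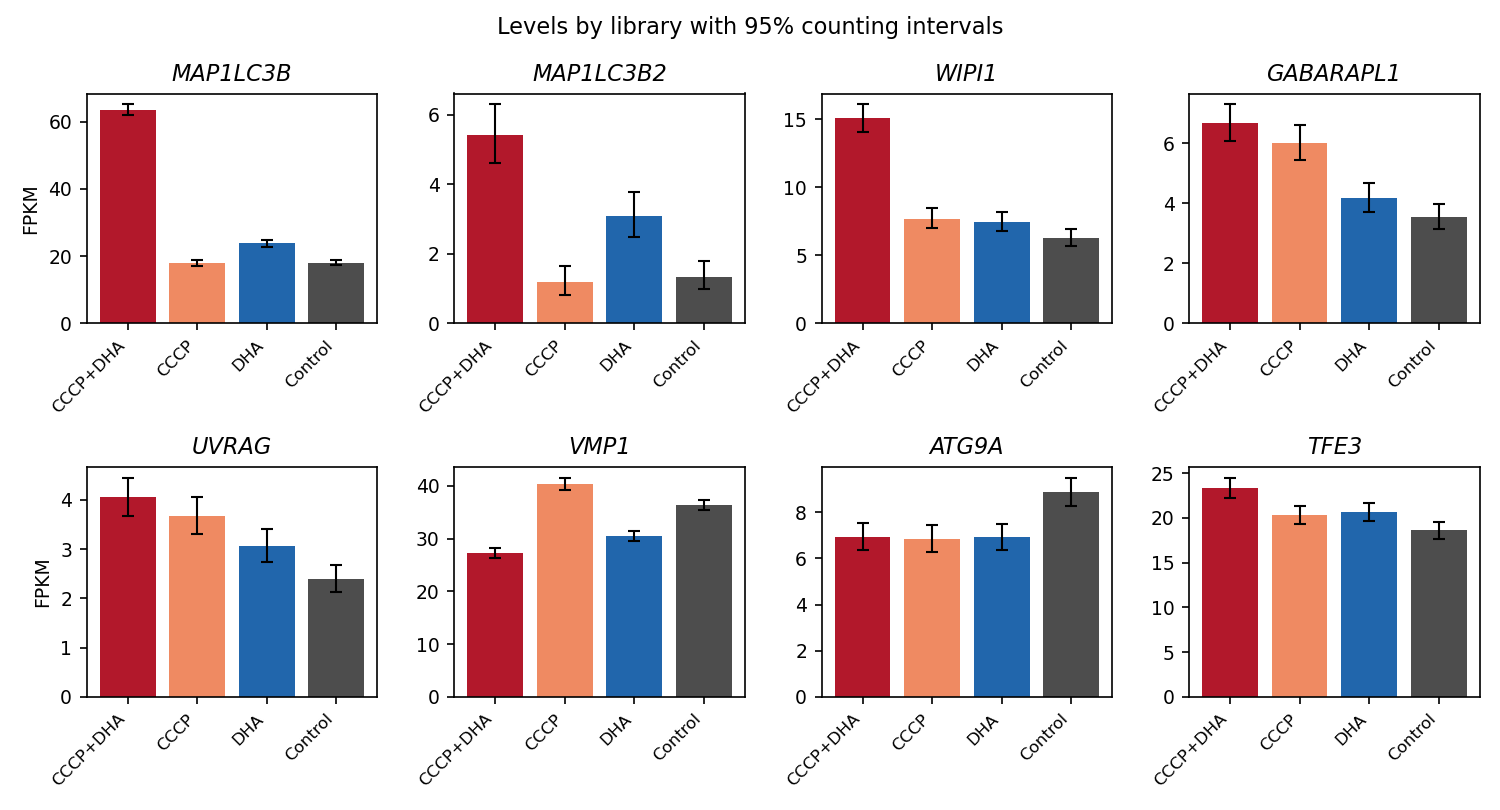
FPKM of 8 members in each library, with bars from 0 and exact 95% Poisson intervals that cover counting error only. MAP1LC3B, MAP1LC3B2 and WIPI1 are tallest with CCCP plus DHA, GABARAPL1 is high in both libraries with CCCP, and VMP1 is lowest with CCCP plus DHA.

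Summed over the 6 LC3 and GABARAP genes, the level was 94 FPKM with CCCP plus DHA, 47.5 with CCCP, 50.1 with DHA and 41.7 in control. MAP1LC3B made up 67.5% of the sum with CCCP plus DHA, 38.1% with CCCP, 47.5% with DHA and 43.3% in control. GABARAPL2 made up 19.3, 46.5 and 37.5% with CCCP plus DHA, CCCP and DHA, and 43.8% in control. The combination library was thus the only 1 of the 4 in which a single gene held over 60% of the listed family, with GABARAP listed under 1 FPKM in each.

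**Figure D4:**
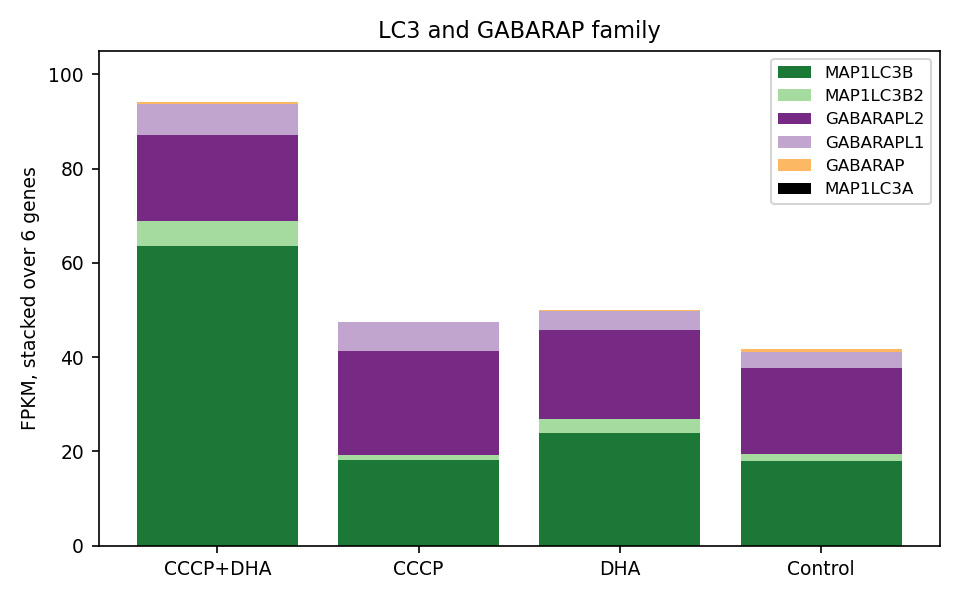
Stacked FPKM of the 6 LC3 and GABARAP genes in each library. The stack reaches 94 FPKM with CCCP plus DHA, of which MAP1LC3B makes up 63.5, against stacks of 47.5, 50.1 and 41.7 with CCCP, with DHA and in control.

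STX17, the SNARE of the autophagosome that drives fusion with the lysosome, was at 4.83 FPKM with CCCP plus DHA, 4.05 with CCCP, 3.69 with DHA and 4.24 in control. It was 1.31-fold (1.12 to 1.53) higher with the combination than with DHA alone, and its ratio to control, 1.14 (0.988 to 1.31), had an interval that included 1. Of the transcription factors, TFE3 was the abundant one, at 23.3 FPKM with CCCP plus DHA, 20.3 with CCCP, 20.7 with DHA and 18.6 in control. All 3 treated libraries lay above control, the combination by 1.25-fold (1.17 to 1.34). TFEB was at 1.17, 1.32 and 1.26 FPKM with CCCP plus DHA, CCCP and DHA and at 1.19 in control, and its combination ratio of 0.981 (0.757 to 1.27) was not told from 1. The related melanocyte factor gene MITF was at 5.01, 8.89 and 7.35 FPKM with CCCP plus DHA, CCCP and DHA, and at 8.81 in control, 0.569-fold (0.516 to 0.627) with the combination.

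Whether the combination exceeded the sum of the single compounds was described as the departure from additivity, the log2 ratio of the combination minus those of CCCP and DHA alone. It was 1.39 for MAP1LC3B with a counting standard error of 0.06, 0.84 (0.28) for MAP1LC3B2 and 0.70 (0.12) for WIPI1. Additive ratios would have put MAP1LC3B at 23.9 FPKM, against 63.5 FPKM measured, and WIPI1 at 9.08, against 15.1 measured. The departure was 0.5 or more in size for these 3 of the 33 genes, beside 25% of tested genes. That share covers all 13678 tested genes, of which 10896 are protein-coding, and counting error is larger for genes with few reads. No share was taken over genes of like depth, so the 25% does not show that the members were unusually additive. Of the 33, 22 were above 0, at a median of 0.10 against -0.00 over all tested genes. GABARAPL1 and UVRAG, which had the largest ratios of CCCP alone to control among the 33 tested genes, had departures of -0.07 (0.14) and -0.18 (0.13). Departures of STX17, ATG9A and PIK3C3 were 0.41 (0.14), 0.36 (0.11) and 0.30 (0.07). On the lower side, GABARAPL2 and VMP1 had departures of -0.32 (0.09) and -0.31 (0.04). MAP1LC3B ranked 330 of the 13678 tested genes from the highest departure.

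**Figure D5:**
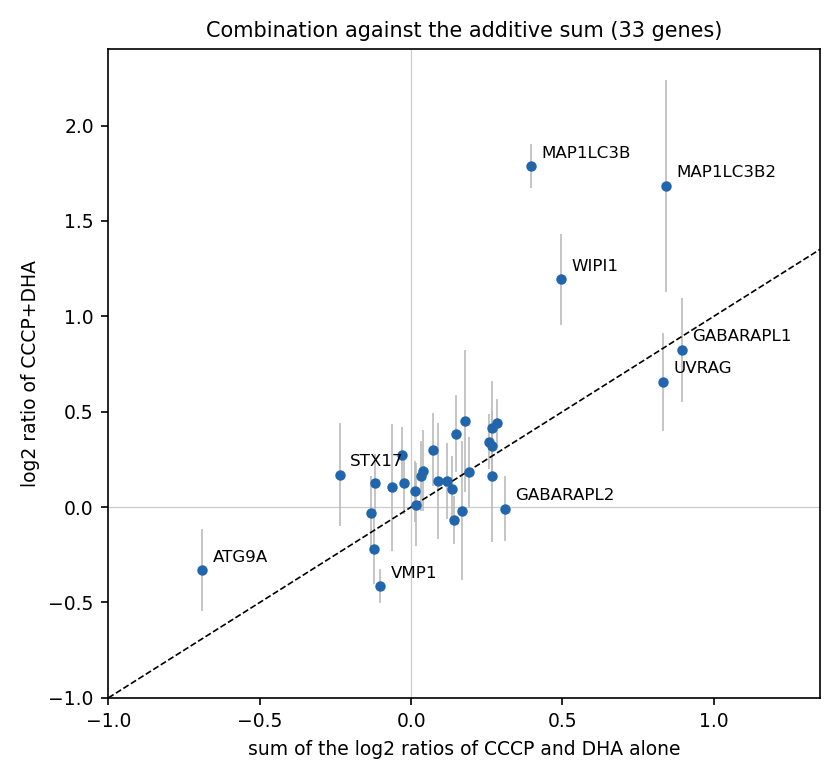
Log2 ratio of CCCP plus DHA to control against the sum of the log2 ratios of CCCP and DHA alone, for the 33 tested genes, with a dashed line of equality and bars of approximate 95% counting intervals of the departure. MAP1LC3B, MAP1LC3B2 and WIPI1 lie above the line, and GABARAPL1 and UVRAG lie near it.

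Since 2 libraries held CCCP and 2 held DHA, limma-trend could be fitted with both compounds as additive terms over all 13678 genes. The fit left 1 residual degree of freedom, the departure from additivity, which stood in for the spread. Its standard errors and p-values therefore measure no spread between cultures. A larger departure, such as that of MAP1LC3B, raises the standard error of that gene. None of the 33 members passed an adjusted p of 0.05 in the fit for CCCP, for which 0.0366% of tested genes rose and 0.0585% fell. None passed for DHA either, for which 0.095% rose and 0.00731% fell. At an unadjusted p under 0.05, 3 members (WIPI1, GABARAPL1 and UVRAG) were past the threshold for CCCP, beside 14.5% of tested genes, and 4 for DHA (VMP1, WIPI1, MAP1LC3B and MAP1LC3B2), beside 12.1%. For DHA, MAP1LC3B2 had a log2 effect of 1.39 (SE 0.24, limma adjusted p 0.194) and MAP1LC3B 1.09 (SE 0.31, limma adjusted p 0.319). For CCCP, GABARAPL1 had a log2 effect of 0.65 (SE 0.13, limma adjusted p 0.128) and WIPI1 0.62 (SE 0.19, limma adjusted p 0.247). Each was higher in both pairs of libraries that differ in that compound. With voom on recovered reads, 2 members passed for CCCP (GABARAPL1 and WIPI1) and 2 for DHA (MAP1LC3B and MAP1LC3B2), where 2.17% of tested genes rose and 2.84% fell for CCCP, and 1.7% rose and 2.2% fell for DHA. With every library scaled to the same total, none passed for CCCP, where 1.61% rose and 2.6% fell. MAP1LC3B and MAP1LC3B2 passed for DHA, where 1.62% rose and 2.17% fell.

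The promoters of the genes that stood out were read from RefSeq (GRCh38.p14) for short motifs. Of the 36 genes, 31 had a window of 250 bases before and 50 after a start, 36 windows in all. The motifs, searched on both strands, were CACGTG, the E-box, TCACGTGA, the longer form that contains it and that TFEB and TFE3 bind, TGATGNAA, bound by ATF4 with C/EBP partners, TGAGTCA, bound by AP-1, and CCAAT, bound by NF-Y. CACGTG occurred in 2 genes, ATG3 and ATG14, beside 7.26% of all 35116 windows, and TCACGTGA in ATG3, beside 0.98%. TGATGNAA was in none of the 36 windows, beside 3.62%, and TGAGTCA in TFE3 alone, beside 4.95%. CCAAT was in 12 windows of 12 genes, beside 34.6%.

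The windows of MAP1LC3B and WIPI1 are shown up to the start because they are 2 of the 3 genes that were at least 2-fold higher with the combination, and those of ATG3 and ATG14 around their E-boxes. Capitals mark motif matches. WIPI1 held CCAAT at 248 and 201 bases before its start, and MAP1LC3B held none of the 5 motifs.
MAP1LC3B, chr16:87392086-87392335, plus strand: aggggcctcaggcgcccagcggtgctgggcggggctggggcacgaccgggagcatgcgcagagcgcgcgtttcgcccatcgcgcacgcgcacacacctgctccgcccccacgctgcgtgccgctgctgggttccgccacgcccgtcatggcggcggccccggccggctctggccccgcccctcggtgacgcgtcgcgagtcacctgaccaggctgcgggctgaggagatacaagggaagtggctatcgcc
WIPI1, chr17:68457497-68457746, minus strand: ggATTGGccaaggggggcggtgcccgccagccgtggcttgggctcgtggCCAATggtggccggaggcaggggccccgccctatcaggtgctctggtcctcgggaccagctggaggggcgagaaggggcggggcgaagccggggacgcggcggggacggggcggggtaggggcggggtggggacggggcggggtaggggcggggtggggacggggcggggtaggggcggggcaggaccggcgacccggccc
ATG3, chr3:112561943-112561992, minus strand: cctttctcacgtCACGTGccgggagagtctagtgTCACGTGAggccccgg
ATG14, chr14:55411831-55411870, minus strand: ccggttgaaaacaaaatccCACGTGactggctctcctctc
A match is a description of these letters only, and nothing follows from its absence about any factor.

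Cargo receptor genes, whose proteins link cargo to LC3 and GABARAP, lay higher than the core machinery with the combination. All 13 were above control, beside 50.7% of tested genes. By at least 2-fold there were 2 (SQSTM1 and CCPG1, the second named after its values were seen), beside 4.52%. The counting interval lay above 1 for 11 of the 13, beside 30.8% of tested genes. The median log2 ratio of the list was 0.58, against 0.16 for the core genes and 0.01 over all tested genes. SQSTM1 (p62), the receptor of ubiquitinated cargo, was at 129 FPKM with CCCP plus DHA, 55.6 with CCCP, 55.2 with DHA and 40.7 in control, 3.17-fold (3.08 to 3.26) higher with the combination. TAX1BP1 was 1.82-fold (1.72 to 1.92) and OPTN 1.57-fold (1.5 to 1.65) higher. OPTN was already 1.49-fold (1.41 to 1.56) higher with CCCP alone. With CCCP the list had a median of 0.24 with 10 of 13 above control, and with DHA 0.11 with 12 of 13, beside 49.9% of tested genes in each.

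Other genes of the core steps, not among the 36, included 3 that were over 1.5-fold higher with the combination, against 11.1% of tested genes. Of 15 listed, 10 were tested and 8 lay above control with the combination, beside 50.7% of tested genes. The 10 had a median log2 ratio of 0.12. None was past 2-fold in either direction, beside 4.52% of tested genes higher and 5.44% lower. NRBF2, a partner of ATG14 in the lipid kinase complex, was at 23.6 FPKM with CCCP plus DHA, 14.9 with CCCP, 16 with DHA and 13.6 in control. WDR45, of the WIPI family, and BCL2L1, whose protein BCL-XL binds BECN1, were 1.59-fold (1.44 to 1.76) and 1.59-fold (1.49 to 1.69) higher with the combination, and NRBF2 1.73-fold (1.55 to 1.94). ATG16L2, a paralog of ATG16L1 named after its values were seen, was 1.76-fold (1.53 to 2.02) higher with CCCP alone and 1.09-fold (0.932 to 1.28) with the combination. Tethering and fusion genes had a median of 0.14 over 13 tested genes, 7 of them above control, close to the share of 50.7% over all tested genes. VPS11, a subunit of the HOPS tether, was 1.52-fold (1.37 to 1.69) higher, SNAP29, the partner of STX17, had a ratio of 0.977 (0.869 to 1.1) with the combination and was lower with CCCP alone, at 0.776 (0.684 to 0.88). FYCO1, a transport adaptor, was 1.13-fold (1.05 to 1.21) higher with the combination and 1.36-fold (1.27 to 1.46) with CCCP alone.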

How the data were processed

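RNA-seq of 4 OMM2.3 libraries (1 per group) was analysed. The authors deposited FPKM per gene, per the file headers. Libraries were made with an Illumina TruSeq RNA kit from 1 ug of RNA, per the labels' protocols. The sources used here name no aligner, counter or genome build. GENCODE held all 58735 identifiers of the tables, in release 29 (Ensembl 94, GRCh38), and FPKM multiplied by its summed exon lengths gave whole reads for 100% of genes above 0, within 0.01 reads. The deposited scaling between libraries was kept.

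Ratios were taken on log2(FPKM + 0.5), for the 13678 genes that reached 1 FPKM in any library. The 5 comparisons of single libraries had no test. The additive fit used limma-trend with Benjamini-Hochberg adjustment over all tested genes. It was run on simulated counts in which 200 genes per factor differed by known folds. The simulated folds were additive, so that run cannot show how the fit behaves for genes that depart from additivity. All 36 members could be named, and of 6 further lists up to 3 genes with the largest ratio to control, in either direction and any of the 3 treatments, and a mean of at least 5 FPKM, plus SQSTM1, ATF4, DDIT3 and MITF. The members and lists were chosen with earlier results of these data known. Alternatives were pseudocounts of 0.1 and 1, other filters, 2 rescalings, a 1.5-fold rule, protein-coding genes alone, limma without trend, and voom. Tools were R 4.3.3, limma 3.58.1, and, in Python 3.11.15, scipy 1.17.1, pandas 2.3.3, matplotlib 3.10.9 and numpy 2.4.6.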

Additional observations from a re-analysis of the deposited data

Results flagged for a closer look

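VMP1 differed between the 2 settings of the CCCP contrast. Its log2 ratio was 0.15 for CCCP against control and -0.16 for CCCP plus DHA against DHA alone, and the counting intervals of both excluded 1 on opposite sides. With every library scaled to the same total the values were 0.04 and -0.09. The difference between the 2 ratios was not tested, since each group had 1 library.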

How the results depend on the processing

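No paired analysis was possible because each group has 1 library and the labels give no replicate numbers. Leaving out a library was not possible either, since the additive fit would keep no residual degree of freedom. Of 152 values of counts and medians under the alternatives, 139 stayed near the main value, and no ratio past 2-fold changed sign. Near meant a count equal to the main one or within 1.5-fold of it, or a median inside the binomial interval of the main median. Some of the 152 could not move. Protein-coding genes alone kept the same 33 members, and the 1.5-fold rule leaves medians unchanged. The count of 139 therefore overstates how stable the results were. Equal totals turned small single-compound ratios, such as that of MAP1LC3B with CCCP to -0.11 on the log2 scale. The 1.5-fold rule gave 5 higher members with CCCP plus DHA against control, 1 with CCCP, 1 with DHA and 4 for the combination against DHA. A pseudocount of 0.1 gave 1 with DHA and 2 for the combination against DHA, equal totals gave 2 for that comparison too, and a mean of at least 5 FPKM gave 1 against CCCP, with 20 members tested. Equal totals moved the member medians to -0.026 for CCCP and -0.0701 for DHA. In the additive fit, equal totals gave 2 members that rose for DHA, and voom 2 for CCCP and 2 for DHA, against 0 in each; the cause was not tested. Depth limits ATG10, MAP1LC3A, MAP1LC3B2, TFEB and GABARAP, with under 170 reads in each library.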

Other observations

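Tested upstream inputs of autophagy stayed within 2-fold of control in each treated library. Of 16 listed kinases and regulators 15 were tested, and their median log2 ratio to control was 0.07 with CCCP plus DHA. None was at least 2-fold higher or lower with the combination, beside 4.52 and 5.44% of tested genes. The counting interval lay above 1 for 7 and below 1 for 3 with the combination, beside 30.8 and 29.3% of tested genes. With CCCP the counts were 5 and 4, beside 3527 and 3535 of the 13678 tested genes, and with DHA 3 and 2, beside 2480 and 2352. PRKAB2, a subunit of the energy-sensing kinase AMPK, had a log2 ratio to control of 0.31 with CCCP plus DHA, 0.39 with CCCP and -0.01 with DHA. AKT1S1, an inhibitory partner of mTORC1, was at -0.24, -0.45 and -0.04, and EEF2K, which slows translation elongation, at -0.37, -0.24 and -0.18 in the same order. Genes around TFEB control had a median of 0.05 over 13 tested genes for the combination, with RRAGA at -0.31 and RRAGD at 0.17. The list ran from -0.76 (MITF) to 0.57 (RRAGC, named after its values were seen).

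Stress transcription factors had a median of 0.84 over 11 genes with CCCP plus DHA, against 0.01 over all tested genes, and 4 of them were at least 2-fold higher (ATF4, DDIT3, CEBPG and ATF3, the last named after its values were seen), beside 4.52% of tested genes. ATF4 was at 342 FPKM with CCCP plus DHA, 129 with CCCP, 229 with DHA and 104 in control. DDIT3 (CHOP) was at 63, 7.37 and 12.7 FPKM with CCCP plus DHA, CCCP and DHA, and at 5.5 in control. CEBPG was at 59.5, 15 and 27.8 FPKM with CCCP plus DHA, CCCP and DHA, and at 10.9 in control.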
